A study of Mus musculus with 13 samples.

Results

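The lysosomal enzymes and membrane proteins described here are 36 genes named for their known place in the lysosome, by a rule that uses no measured value. They were followed in F4/80+ cells of the mouse fetal liver at E13.5, out of 23337 gene rows in the count files of the EKLF+/+ and EKLF-/- libraries and 35498 genes in the EKLF/GFP libraries. The 36 genes comprise 8 cysteine proteases (Ctsb, Ctsc, Ctsh, Ctsk, Ctsl, Ctss, Ctsz, Lgmn), 3 aspartic or serine proteases (Ctsd, Ctsa, Tpp1), 7 glycosidases (Gaa, Glb1, Gla, Hexa, Gusb, Man2b1, Neu1) and 7 proteins of lipid handling (Lipa, Asah1, Smpd1, Psap, Npc1, Npc2, Ppt1). The remaining genes encode 2 other luminal proteins (Grn, Acp5), 5 membrane proteins (Lamp1, Lamp2, Cd63, Cd68, Mcoln1), 2 proton pump subunits (Atp6v0d1, Atp6v0d2) and 2 transcription factors that act on lysosomal genes (Tfeb, Tfe3).

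Bulk RNA-Seq was done on 12 libraries of FACS-sorted F4/80+ cells, in 4 groups of 3 that the study describes as biological replicates. EKLF+/+ cells came from wild type embryos and EKLF-/- cells from embryos null for EKLF (Klf1), an erythroid transcription factor. EKLF/GFP+ and EKLF/GFP- cells were sorted from wild type embryos that carry pEKLF/GFP, a single-copy transgene in which the EKLF promoter drives GFP, so that GFP reports the activity of that promoter and not EKLF itself. A single-cell library was made from F4/80+ cells of pooled wild type littermates, selected with magnetic beads. The labels give C57BL/6 for every sample, while the study's list of strains places the EKLF-null allele on a 129S4/SvJae background. RNA of the EKLF/GFP+ libraries was made with the Absolutely RNA Nanoprep kit and RNA of all other bulk libraries with Trizol, so that kit and group cannot be told apart in that comparison. The study ties this kit to low cell numbers. It gives a lower RNA integrity for the EKLF/GFP+ RNA than for the EKLF+/+ and EKLF-/- samples. For EKLF/GFP- it gives none, so whether RNA quality differed within that comparison is not known.

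Lysosomes are acidic organelles in which hydrolases break down proteins, glycans and lipids delivered by endocytosis, phagocytosis and autophagy. Most luminal hydrolases are made as precursors, tagged with mannose 6-phosphate and matured by proteolysis, while the V-ATPase pumps the protons on which they depend. In the fetal liver, macrophages at the centre of erythroblastic islands engulf the nuclei that erythroblasts expel, and digest them in lysosomes. The transcription factors TFEB and TFE3 activate many lysosomal genes through a promoter element built around an E-box.

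Promoter sequence was available for 31 of the 36 genes (RefSeq, GRCm38.p6, 250 bases before to 50 after the transcription start). The E-box CACGTG was found in 8 of the 31 (25.8%), against 7.2% of 27025 promoters in all: Atp6v0d1, Ctsd, Ctsl, Gaa, Gla, Glb1, Lamp1 and Mcoln1. An extended palindromic form of this E-box was found in 0 of the 31 and in 0.4% of all promoters. The letters CCNCNCCC, a form of the site that EKLF binds, were found on either strand in 21 of the 31 (67.7%) and in 49.1% of all promoters. The stricter CCACACCC, which CCNCNCCC includes, was found in 3 of the 31 (Acp5, Grn and Tfe3) and in 3.6% of all promoters. A match describes the sequence and does not show that a factor is bound. Other starts are annotated in GENCODE for 3 of the 5 genes whose stretches are printed: further downstream for Acp5, and further upstream for Ctsd and Mcoln1, so that the stretch of Ctsd lies within the annotated gene and that of Mcoln1 runs into it. The stretches below, all upstream of the RefSeq start and written 5′ to 3′ on the strand of the gene, belong to genes on which the results turn. Acp5 was called in opposite directions in the bulk comparisons, and its stretch (chr9:22135751-22135841, minus strand) has CCACACCC in capitals, read on the other strand. Ctsc had the largest difference of these genes between EKLF/GFP+ and EKLF/GFP-, and its stretch (chr7:88277990-88278084, plus strand) has CCNCNCCC in capitals. Ctsd was higher in both comparisons (chr7:142387908-142387957, minus strand), while Lamp1 (chr8:13159086-13159160, plus strand) and Mcoln1 (chr8:3500434-3500493, plus strand) were called in neither, and these 3 stretches have the E-box in capitals.
Acp5: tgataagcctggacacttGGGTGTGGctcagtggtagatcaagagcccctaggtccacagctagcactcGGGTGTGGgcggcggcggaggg
Ctsc: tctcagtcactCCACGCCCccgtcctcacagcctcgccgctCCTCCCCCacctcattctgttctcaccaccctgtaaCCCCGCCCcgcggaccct
Ctsd: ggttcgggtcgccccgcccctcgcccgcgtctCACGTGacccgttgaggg
Lamp1: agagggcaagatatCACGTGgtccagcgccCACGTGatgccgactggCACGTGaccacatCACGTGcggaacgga
Mcoln1: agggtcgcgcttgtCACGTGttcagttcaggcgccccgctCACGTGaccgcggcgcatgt

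Between 10695514 and 15362161 reads were counted on genes in the EKLF+/+ and EKLF-/- libraries, and between 22723279 and 28736396 were estimated on genes in the EKLF/GFP libraries. Values are CPM, the counts of a gene scaled by the TMM-normalized size of its library, and a gene was called where edgeR's quasi-likelihood test gave an adjusted p under 0.05 over all genes tested. Klf1 was 304.7 to 375.8 CPM in EKLF+/+ and 57.11 to 64.22 CPM in EKLF-/-, and 28.62 to 45.72 CPM in EKLF/GFP- and 87.25 to 100.6 CPM in EKLF/GFP+. Both the genotype and the sort were therefore seen in the transcript of the gene itself. In bulk samples, fewer cells of a type and less RNA per cell cannot be told apart. Markers of other cells were present in every library: the summed level of 7 neutrophil markers was 1664 to 2640 CPM in EKLF+/+ and that of 15 erythroid markers 15730 to 20210 CPM, against 292.8 to 353.5 CPM for 10 macrophage markers.

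To see whether loss of EKLF changes the lysosomal transcripts of F4/80+ cells, EKLF-/- was compared with EKLF+/+. Of the 36 genes 34 could be tested, and 14 were higher and 2 lower in EKLF-/-. The cathepsins Ctss, Ctsh, Ctsc, Ctsd, Ctsz and Ctsl rose by 0.59 to 1.12 on the log2 scale, together with Cd63, Atp6v0d1, Neu1, Psap, Smpd1, Hexa, Tfeb and Man2b1, and Acp5 and Ctsb fell. The share called higher was 41.2%, against 9.72% of all 12753 genes tested, and the share called lower was 5.88%, against 10.6% (20.3% in either direction). The groups did not overlap for 24 of the 34 genes (70.6%, against 46.3% of all genes), 22 of them higher and 2 lower in EKLF-/-. The median log2 fold change of the 34 genes was 0.44, against 0.0158 over all genes, and 29 of the 34 lay above 0. Ctsk and Atp6v0d2, the cathepsin and the pump subunit best known from osteoclasts, were not tested, with at most 8 and 2 counts in any library.

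**Figure D1:**
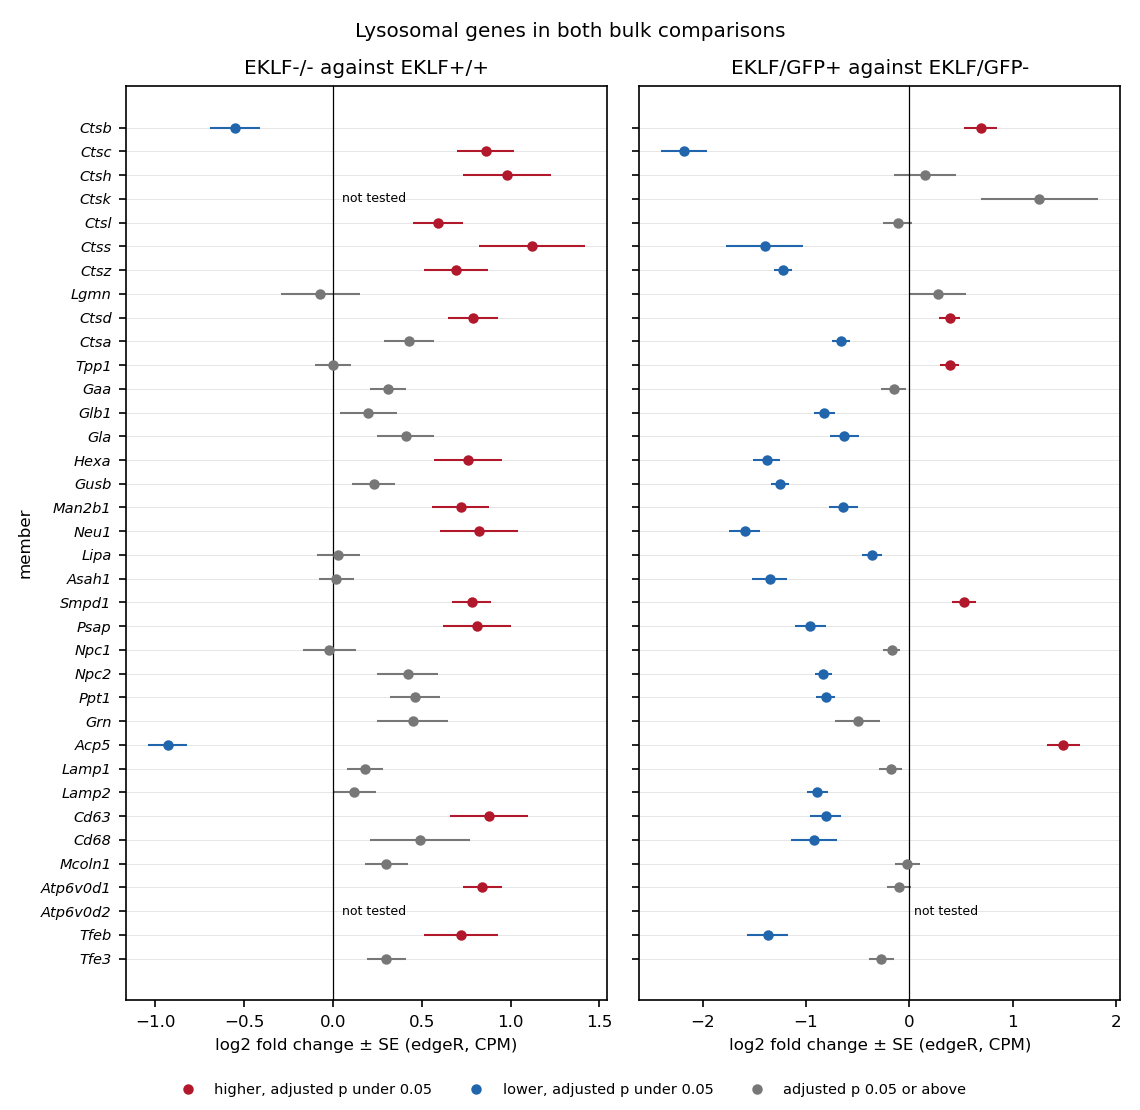
Log2 fold change of each lysosomal gene (x axis, points with SE from edgeR) in EKLF-/- against EKLF+/+ (left) and EKLF/GFP+ against EKLF/GFP- (right), each from 3 libraries a group and with its own x scale, with red for genes called higher, blue for genes called lower and grey for genes not called. On the left 14 genes are red and 2 blue (Ctsb and Acp5), and on the right 5 are red and 19 blue.

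Among the proteases, Ctss, a cysteine protease of antigen presentation, was 25.6, 30.98 and 37.42 CPM in EKLF+/+ and 45.24, 103.5 and 55.18 CPM in EKLF-/- (log2 fold change 1.12 ± 0.30 (SE), edgeR adjusted p = 0.0331). All 3 EKLF-/- libraries lay above the EKLF+/+ libraries, and replicate 2 lay far above the others. Ctsc, the dipeptidyl peptidase that activates serine proteases of myeloid granules, was 115.1, 116.3 and 133.1 CPM in EKLF+/+ and 193.9, 274.3 and 192.1 CPM in EKLF-/- (0.86 ± 0.16, edgeR adjusted p = 0.00849). Ctsd, the main aspartic protease of lysosomes, was 337, 365.9 and 379.1 CPM in EKLF+/+ and 553.8, 741.1 and 578.5 CPM in EKLF-/- (0.79 ± 0.14, edgeR adjusted p = 0.00716). For Ctsc and Ctsd, every EKLF-/- library thus lay above every EKLF+/+ library. Ctsb, which was the most abundant of these genes by counts in EKLF+/+, was 559.8, 575.8 and 683.7 CPM in EKLF+/+ and 368.2, 478.9 and 393.1 CPM in EKLF-/-, and it fell by 0.55 on the log2 scale (SE 0.14, edgeR adjusted p = 0.0289). It was the only one of the 7 cysteine proteases tested among the 36 genes that was called lower. Lgmn (log2 fold change -0.07), the carboxypeptidase Ctsa (0.43, adjusted p = 0.0599) and Tpp1, a tripeptidyl peptidase (adjusted p = 0.988, all edgeR) were not called.

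All 7 glycosidases had a log2 fold change above 0, from 0.20 for Glb1 to 0.82 for Neu1, and 3 were called. Neu1, a sialidase, was 32.07, 37.71 and 33.52 CPM in EKLF+/+ and 45.31, 84.86 and 53.02 CPM in EKLF-/- (0.82 ± 0.22, edgeR adjusted p = 0.0342). Hexa, the alpha subunit of beta-hexosaminidase, rose by 0.76 on the log2 scale. Man2b1, an alpha-mannosidase, was 140.6 to 210.5 CPM in EKLF+/+ and 259.9 to 326.5 CPM in EKLF-/- (0.72 ± 0.16, edgeR adjusted p = 0.0206). Man2b1 starts 178.0 kb from the end of Klf1, the gene with the null allele, on chromosome 8. Whether this position bears on the level of Man2b1 was not tested.

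Of the 7 genes of lipid handling, Psap and Smpd1 were higher. Psap, the precursor of the saposins that present sphingolipids to hydrolases, was 498.7, 513.7 and 493.7 CPM in EKLF+/+ and 692.1, 1162 and 782 CPM in EKLF-/- (0.81 ± 0.19, edgeR adjusted p = 0.0214). Smpd1, acid sphingomyelinase, was 40.01, 36.71 and 38.33 CPM in EKLF+/+ and 71.79, 60.93 and 64.2 CPM in EKLF-/- (0.78 ± 0.11, edgeR adjusted p = 0.00271). Smpd1 was called higher although, unlike in most of these genes, replicate 2 was the lowest EKLF-/- library. The acid lipase Lipa (0.03), the acid ceramidase Asah1 (0.02) and the cholesterol exporter Npc1 (-0.02) had log2 fold changes near 0, with SEs of 0.10 to 0.15.

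Acp5, the tartrate-resistant acid phosphatase of macrophages and osteoclasts, was 145.2, 131.3 and 166.7 CPM in EKLF+/+ and 77.15, 79.13 and 76.61 CPM in EKLF-/-. It fell by 0.93 on the log2 scale (SE 0.11, edgeR adjusted p = 0.00128), the smallest adjusted p among the 34 genes. Grn, which encodes progranulin, was not called (0.45, edgeR adjusted p = 0.134). Of the membrane proteins only the tetraspanin Cd63 was called (99.25 to 127.8 CPM in EKLF+/+, 156.4 to 276.4 CPM in EKLF-/-, 0.88 ± 0.22, edgeR adjusted p = 0.0258). Lamp1, one of the main glycoproteins of the lysosomal membrane, was 320.5 to 341.8 CPM in EKLF+/+ and 361.5 to 391.1 CPM in EKLF-/- without being called (0.18, edgeR adjusted p = 0.204). Lamp2 (0.12), Mcoln1 (0.30), a calcium channel, and Cd68 (0.49), a macrophage glycoprotein, were not called either. Atp6v0d1, the widely expressed d subunit of the V-ATPase, was 79.01, 79.08 and 84.05 CPM in EKLF+/+ and 129.5, 163.8 and 140 CPM in EKLF-/- (0.84 ± 0.11, edgeR adjusted p = 0.0022). Tfeb was 19.78, 18.79 and 17.18 CPM in EKLF+/+ and 23.35, 41.21 and 27.44 CPM in EKLF-/- (0.72 ± 0.21, edgeR adjusted p = 0.0428), while Tfe3 was not called (0.30, edgeR adjusted p = 0.086).

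**Figure D2:**
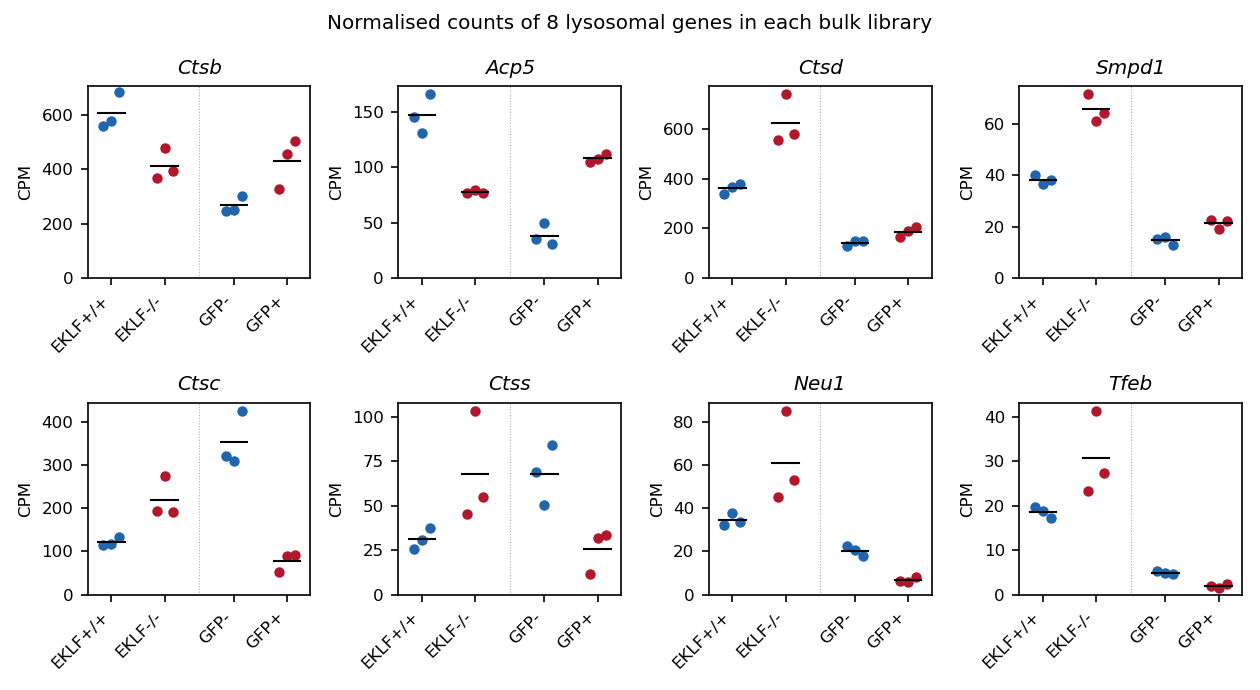
Level of 8 lysosomal genes (y axis, CPM from 0, one scale per gene) in each of the 12 bulk libraries, with points for libraries and bars for the mean of 3, where blue marks EKLF+/+ and EKLF/GFP- and red marks EKLF-/- and EKLF/GFP+. Ctsb and Acp5 are lower in EKLF-/- and higher in EKLF/GFP+, Ctsd and Smpd1 are higher in both, and Ctsc, Ctss, Neu1 and Tfeb are higher in EKLF-/- and lower in EKLF/GFP+; the counting tool differs across the dotted line.

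A single library weighed on several of these values. EKLF-/- replicate 2 was the highest of the 6 libraries for 24 of the 34 genes, and it was also the highest for the sum of 5 granulocyte-monocyte progenitor markers (summed level 10700 CPM, against 5231 and 6163 CPM in the other EKLF-/- libraries and 3596 to 4938 CPM in EKLF+/+) and for that of 7 neutrophil markers (5156 CPM, against 2860 and 3700 CPM and 1664 to 2640 CPM). Of the granulocyte-monocyte progenitor markers 4 of 5 and of the neutrophil markers 3 of 7 were called higher in EKLF-/-. None of 10 macrophage markers was called higher, 1 was called lower and Cd163 was not tested, and their summed level was 315.0 to 464.1 CPM in EKLF-/- and 292.8 to 353.5 CPM in EKLF+/+. Of 15 erythroid markers, none was called higher, 7 were called lower and 3 were not tested, with summed levels of 4426 to 6550 CPM in EKLF-/-. Of 6 endothelial markers 3 were lower and none higher (145.5 to 150.7 CPM, against 196.0 to 223.4 CPM in EKLF+/+). Of the mast cell or basophil markers 2 of 5 tested were higher (159.0 to 221.6 against 127.0 to 148.3 CPM), of the monocyte markers 1 of 6 was higher (389.0 to 494.8 against 322.7 to 398.4 CPM), and of the stem and progenitor markers 2 of 3 and of the mesenchymal markers 4 of 5 tested were lower. The share of reads that fell on genes was 31.07% to 32.78% in EKLF-/- and 27.31% to 28.95% in EKLF+/+, and EKLF-/- replicate 2 had the lowest share of reads outside annotated features (38.74%, against 41.86% to 44.2% in the other 5 libraries). The part of these other cells and of these read shares in the lysosomal values was not tested. Without EKLF-/- replicate 2, 14 genes were still called higher and 2 lower, with a median of 0.29. The number called higher was 4 without EKLF+/+ replicate 1, 5 without replicate 2, 4 without replicate 3 and 6 without EKLF-/- replicate 3, each with 1 called lower, and 19 without EKLF-/- replicate 1. Over all genes those called higher fell from 1239 to 346 without EKLF+/+ replicate 1. Ctsc, Ctsd, Smpd1, Atp6v0d1 and Acp5 were called in all 6 fits that left out 1 library, and each of the other 11 called genes lost its call when EKLF+/+ replicate 1 was left out and when EKLF+/+ replicate 3 was, with edgeR adjusted p up to 0.136.

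**Figure D3:**
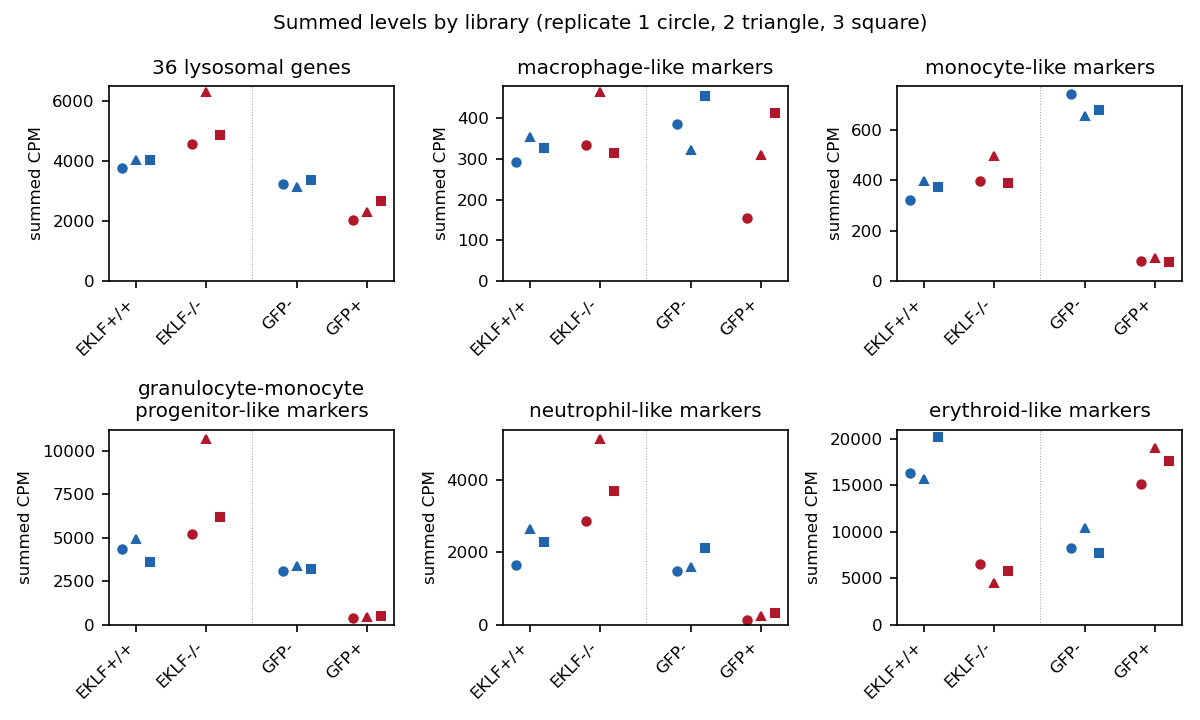
Summed level (y axis, CPM from 0) of the 36 lysosomal genes and of 5 lists of cell type markers in each bulk library, blue for EKLF+/+ and EKLF/GFP-, red for EKLF-/- and EKLF/GFP+, with replicates 1, 2 and 3 as circle, triangle and square. EKLF-/- replicate 2 stands highest for the lysosomal genes and for the granulocyte-monocyte progenitor and neutrophil markers, and EKLF/GFP+ lies below EKLF/GFP- for the lysosomal genes and the monocyte, granulocyte-monocyte progenitor and neutrophil markers.

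F4/80+ cells sorted as positive for GFP from the EKLF promoter were then compared with those sorted as negative. Klf1 was present in EKLF/GFP- too (28.62 to 45.72 CPM). Of the 35 lysosomal genes tested, 19 were lower in EKLF/GFP+ and 5 were higher. The 19 included 6 of 7 glycosidases, 5 of 7 genes of lipid handling, the cathepsins Ctsc, Ctss, Ctsz and Ctsa, the membrane proteins Cd63, Cd68 and Lamp2, and Tfeb. The 5 were Acp5, Ctsb, Smpd1, Ctsd and Tpp1. The share called lower was 54.3%, against 25.8% of all 14259 genes tested, and the share called higher was 14.3%, against 18.9% (44.7% in either direction). The groups did not overlap for 26 of the 35 genes (74.3%, against 55.7% of all genes), and the median log2 fold change was -0.63, against -0.0132 over all genes. Atp6v0d2 was not tested, with at most 4 counts in any library.

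Ctsc showed the largest difference. It was 321.8, 310 and 427 CPM in EKLF/GFP- and 53.38, 88.84 and 91.59 CPM in EKLF/GFP+ (log2 fold change -2.18 ± 0.22, edgeR adjusted p = 0.000138). Every EKLF/GFP- library was thus more than 3-fold above every EKLF/GFP+ library. Ctss was 68.86, 50.47 and 84.17 CPM in EKLF/GFP- and 11.71, 31.84 and 33.37 CPM in EKLF/GFP+ (-1.40 ± 0.37, edgeR adjusted p = 0.0151), so that its groups differed but its libraries spread widely. Ctsz, a carboxypeptidase, was 113.1, 115 and 116.7 CPM in EKLF/GFP- and 49.43, 43.82 and 54.92 CPM in EKLF/GFP+ (-1.22 ± 0.09, edgeR adjusted p = 3.86e-05). Ctsb went the other way, with 247, 250 and 303.1 CPM in EKLF/GFP- and 327.3, 457.4 and 501.8 CPM in EKLF/GFP+ (0.69 ± 0.16, edgeR adjusted p = 0.00965). Ctsd was 128.7, 149.3 and 148.1 CPM in EKLF/GFP- and 164.2, 187.6 and 205.8 CPM in EKLF/GFP+ (0.39 ± 0.10, edgeR adjusted p = 0.0154). The call of Ctsd was lost when EKLF/GFP+ replicate 2 or 3 or EKLF/GFP- replicate 1 was left out, or with an offset for transcript length (adjusted p = 0.0702). Tpp1 rose by 0.39 on the log2 scale and lost its call without EKLF/GFP- replicate 1 (edgeR adjusted p = 0.0527). Ctsh, Ctsk, Ctsl and Lgmn were not called.

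Among the glycosidases, Neu1 was 22.39, 20.76 and 17.77 CPM in EKLF/GFP- and 6.31, 5.928 and 8.033 CPM in EKLF/GFP+ (-1.59 ± 0.15, edgeR adjusted p = 0.000109). Hexa (-1.38) and the beta-glucuronidase Gusb (-1.25, edgeR adjusted p = 2.93e-05) fell by a similar size, and Glb1 (-0.82), Man2b1 (-0.64) and Gla (-0.63) by less. Glb1, Neu1 and Ctsa encode the beta-galactosidase, sialidase and protective protein that form 1 complex in the lysosome, and all 3 were lower. Gaa, the enzyme that degrades lysosomal glycogen, was not called (-0.15, edgeR adjusted p = 0.327).

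In lipid handling, Asah1 was 117.7, 111.6 and 133.2 CPM in EKLF/GFP- and 36.26, 47.1 and 58.42 CPM in EKLF/GFP+ (-1.35 ± 0.17, edgeR adjusted p = 0.000342). Psap (-0.96), Npc2 (-0.83), Ppt1 (-0.81) and Lipa (-0.36) were lower as well. Lipa lost its call without EKLF/GFP+ replicate 1 or 2 or EKLF/GFP- replicate 3, with adjusted p up to 0.0948. Smpd1 was 15.31, 15.84 and 13.02 CPM in EKLF/GFP- and 22.52, 19.03 and 22.23 CPM in EKLF/GFP+ (0.53 ± 0.12, edgeR adjusted p = 0.00715), against the direction of the other lipid genes called. Npc1 had no overlap between the groups but was not called (-0.17, edgeR adjusted p = 0.131).

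Acp5 had the largest rise, from 35.29, 49.41 and 30.66 CPM in EKLF/GFP- to 105, 107.7 and 112.4 CPM in EKLF/GFP+ (1.49 ± 0.16, edgeR adjusted p = 0.000204). The level of this phosphatase in EKLF/GFP+ was at least 2-fold that of the highest EKLF/GFP- library. Cd68 (-0.92 ± 0.22), Lamp2 (-0.89 ± 0.10) and Cd63 (-0.81 ± 0.15) fell, and Lamp1 (-0.18) and Mcoln1 (-0.02) were not called. Atp6v0d1, which rose in EKLF-/-, was not called here (-0.10, edgeR adjusted p = 0.557). Tfeb was low in these libraries, at 5.391, 4.751 and 4.58 CPM in EKLF/GFP- and 1.886, 1.534 and 2.267 CPM in EKLF/GFP+ (-1.37 ± 0.20, edgeR adjusted p = 0.000832), and it was not called with an offset for transcript length (-1.12, edgeR adjusted p = 0.0576). Tfe3 was not called (-0.27, edgeR adjusted p = 0.107), and with that offset it was (-0.53, edgeR adjusted p = 0.0196).

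The markers of other cells also moved in this comparison. All 6 monocyte markers, all 5 granulocyte-monocyte progenitor markers and all 7 neutrophil markers were lower in EKLF/GFP+, with summed levels of 76.12 to 92.53 against 655.3 to 741.0 CPM, 379.7 to 495.6 against 3091 to 3351 CPM, and 118.3 to 307.8 against 1488 to 2117 CPM. All 15 erythroid markers were higher, with 15130 to 19030 against 7691 to 10370 CPM. Of 7 megakaryocyte markers 6 were higher and 1 lower (186.6 to 283.0 against 133.2 to 156.6 CPM), and of 6 endothelial markers 4 were lower and none higher (78.84 to 111.1 against 191.5 to 216.7 CPM). All 3 stem and progenitor markers (125.7 to 156.4 against 387.4 to 477.0 CPM) and all 5 lymphoid markers tested were lower, as was 1 of 6 mast cell or basophil markers (138.9 to 191.2 against 236.7 to 315.3 CPM). Of 9 macrophage markers tested 2 were lower and none higher, and their summed level overlapped (155.5 to 414.0 CPM in EKLF/GFP+, 322.9 to 454.8 CPM in EKLF/GFP-). The summed level of the 36 lysosomal genes was 2021, 2317 and 2675 CPM in EKLF/GFP+ and 3124 to 3373 CPM in EKLF/GFP-, with EKLF/GFP+ replicate 1 the lowest of its group for both the lysosomal genes and the macrophage markers. The part of these other cells in the lysosomal values was not tested.

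Levels of different genes were compared per length, in TPM (a transcript level scaled for both length and depth) of the EKLF/GFP libraries. The 36 genes made up 0.093% to 0.122% of TPM in EKLF/GFP+ and 0.141% to 0.153% in EKLF/GFP-. In EKLF/GFP- the order began with Ctsc (median 177.4 TPM, 159.7 to 215.8), Cd63 (173.4 TPM, 139.2 to 179.4), Ctsa (90.83 TPM) and Ctsb (85.89 TPM), where the ranges of Ctsc and Cd63 overlapped. In EKLF/GFP+ it began with Ctsb (131.6 TPM, 117.7 to 168.8), Ctsd (101.3 TPM, 88.74 to 120.6), Cd63 (83.12 TPM, 76.42 to 109.0), Lamp1 (66.05 TPM) and Acp5 (57.73 TPM), where the range of Ctsb overlapped that of Ctsd, and the range of Ctsd that of Cd63. Between the groups Ctsc went from rank 1 to rank 8 and Acp5 from rank 23 to rank 5. The lowest were Tfeb (4.345 TPM in EKLF/GFP-), Ctsk (0.1053 TPM) and Atp6v0d2 (0.03223 TPM) in both groups.

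The bulk comparisons share no libraries, and their calls can be set side by side. Cd63, Ctsc, Ctss, Ctsz, Hexa, Man2b1, Neu1, Psap and Tfeb were higher in EKLF-/- and lower in EKLF/GFP+ (9 of 34 genes tested in both, 26.5%, against 3.45% of all 11658 genes tested in both). Acp5 and Ctsb were lower in EKLF-/- and higher in EKLF/GFP+ (5.88%, against 5.34%). Ctsd and Smpd1 were higher in both (5.88%, against 2.11%). Of the genes in these groups, only Ctsc, Acp5, Ctsd and Smpd1 kept their EKLF-/- call in every fit that left out 1 library. Atp6v0d1, Ctsh and Ctsl were called only in EKLF-/-, and Asah1, Cd68, Ctsa, Gla, Glb1, Gusb, Lamp2, Lipa, Npc2, Ppt1 and Tpp1 only in EKLF/GFP+, without a test of the difference between the comparisons. Gaa, Grn, Lamp1, Lgmn, Mcoln1, Npc1 and Tfe3 were called in neither. In the GENCODE annotation, 12 of the 36 genes share exonic bases with another gene, 3 of them with a gene on the same strand (34.4% of the exonic bases of Ctsd with Gm49369, 6.09% of Ctsl with a pseudogene and 5.49% of Glb1 with Tmppe), and the values of these genes are uncertain where reads there could be assigned to either gene or dropped.

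Other genes of the same pathway were followed in lists made by function, and their counts can be read beside the 9.72% higher and 10.6% lower of all genes in EKLF-/- and the 18.9% higher and 25.8% lower in EKLF/GFP+. Of 29 other lysosomal hydrolases and cofactors tested, 4 were higher and 3 lower in EKLF-/- (median 0.18), and 3 of 30 were higher and 14 lower in EKLF/GFP+ (median -0.46). The aspartic protease Ctse (-1.19) and the cysteine protease Ctsf (-1.50) fell in EKLF-/-, and the largest differences in EKLF/GFP+ were those of Ctsw (-2.98) and of Galns (-2.10), a sulfatase. Ctsw rested on at most 19 counts in a library. Of 23 other lysosomal membrane proteins and transporters, 1 was higher and 1 lower in EKLF-/-, namely Cln3 (0.50) and the cation channel Tpcn1 (-1.19 ± 0.09, edgeR adjusted p = 0.000114). In EKLF/GFP+ 3 were higher and 11 lower, led by Laptm5 (-1.93), a membrane protein of haematopoietic cells, and Abca2 (-1.79).

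Of 16 other V-ATPase subunits tested, 2 were higher and 1 lower in EKLF-/-, and 2 were higher and 6 lower in EKLF/GFP+. Atp6v0a1, an a subunit of the membrane sector, was 111.5 to 127.5 CPM in EKLF+/+ and 66.51 to 84.03 CPM in EKLF-/- (-0.65 ± 0.12, edgeR adjusted p = 0.00783), and 89.85 to 99.18 CPM in EKLF/GFP- and 157.4 to 203.7 CPM in EKLF/GFP+ (1.00 ± 0.11, edgeR adjusted p = 0.00019). Tcirg1, the a subunit best known from osteoclasts and immune cells, was not called in EKLF-/- (0.29, edgeR adjusted p = 0.276) and was lower in EKLF/GFP+ (-1.87 ± 0.16, edgeR adjusted p = 7.03e-05). The subunit Atp6v1d rose by 0.54 on the log2 scale in EKLF-/-. Of 9 genes of mannose 6-phosphate tagging and sorting, 1 was higher and 2 lower in EKLF-/-, namely the sorting adaptor Gga2 (-0.68) and Gnptab (-0.51), whose product makes the tag. In EKLF/GFP+ 3 were higher and 4 lower, led by the sorting receptor Sort1 (-2.19) and Nagpa, which uncovers the tag (21.2 to 23.83 CPM in EKLF/GFP-, 9.909 to 12.15 CPM in EKLF/GFP+).

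Of 16 genes of lysosomal signalling and other factors of the TFEB family, 3 were higher and 3 lower in EKLF-/-, and 4 were higher and 5 lower in EKLF/GFP+. Rragd, a Rag GTPase that couples lysosomes to mTORC1 and acts on TFEB, was 12.94, 14.12 and 15.76 CPM in EKLF+/+ and 0.278, 0.3058 and 0.3083 CPM in EKLF-/- (-5.54 ± 0.24, edgeR adjusted p = 3.74e-06). The EKLF-/- libraries held at least 4 counts each on Rragd, so the size of this difference rests on few reads. Rragd was 1.23 to 1.941 CPM in EKLF/GFP- and 6.053 to 8.55 CPM in EKLF/GFP+ (2.13 ± 0.23, edgeR adjusted p = 0.000172). Fnip2, a partner of folliculin, which acts on Rag GTPases, fell by 1.51 on the log2 scale in EKLF-/-. Tfec, another member of the TFEB family, rose in EKLF-/- (0.90 ± 0.21, edgeR adjusted p = 0.0219) and was 42.06 to 48.37 CPM in EKLF/GFP- and 3.046 to 5.011 CPM in EKLF/GFP+ (-3.46 ± 0.17, edgeR adjusted p = 9.97e-06). In the single-cell library Tfec was 72.66 CPM in neutrophil-like, 63.14 CPM in endothelial-like, 57.26 CPM in macrophage-like, 53.4 CPM in monocyte-like and 3.301 CPM in erythroid-like cells. Mitf was not called in EKLF-/- (-0.05, edgeR adjusted p = 0.908) and was lower in EKLF/GFP+ (-1.09, edgeR adjusted p = 0.0202). Of 3 cathepsin inhibitors, the cystatins Cstb (0.82) and Cst3 (0.78) were higher in EKLF-/-, and Cst7 (-2.35) and Cst3 (-1.59) were lower in EKLF/GFP+.

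The single-cell library, which has no replicate and therefore no test, was used to see which cells of an F4/80 selection carry these transcripts. Of 3096 barcodes, all distinct, 3093 cells with at least 200 genes were kept, with a median of 18610 counts, and formed 14 clusters. Clusters were named from fixed markers: 3 macrophage-like clusters with 1441 cells (46.59%), 3 erythroid-like clusters with 619 cells (20.01%), and single monocyte-like (285 cells), neutrophil-like (220), megakaryocyte-like (87), endothelial-like (83) and hepatoblast-like (64) clusters. The other 294 cells were left unnamed, among them cluster 8 (125 cells), which had macrophage markers at 6361 CPM but erythroid genes among those that led it. Cluster 13 (53 cells), also unnamed, had macrophage markers at 8243 CPM. The 36 genes took 1.798% of counts in macrophage-like cells, 0.695% in monocyte-like, 0.453% in endothelial-like, 0.372% in neutrophil-like and 0.320% in hepatoblast-like cells. They took 0.210% in megakaryocyte-like and 0.186% in erythroid-like cells. The summed level was 17980 CPM (95% exact Poisson interval 17930 to 18040) in macrophage-like cells and 1865 CPM (1846 to 1884) in erythroid-like cells, a ratio of 9.646, and the intervals cover counting error only. Globin took 23.93% of counts in erythroid-like cells, and without globin genes the ratio was 7.411, or 5.723 with coarser clustering (resolution 0.4). Without globin genes the summed level was 18170 CPM in macrophage-like cells, and 1922, 3076 and 7763 CPM in erythroid-like clusters 4, 6 and 7.

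**Figure D4:**
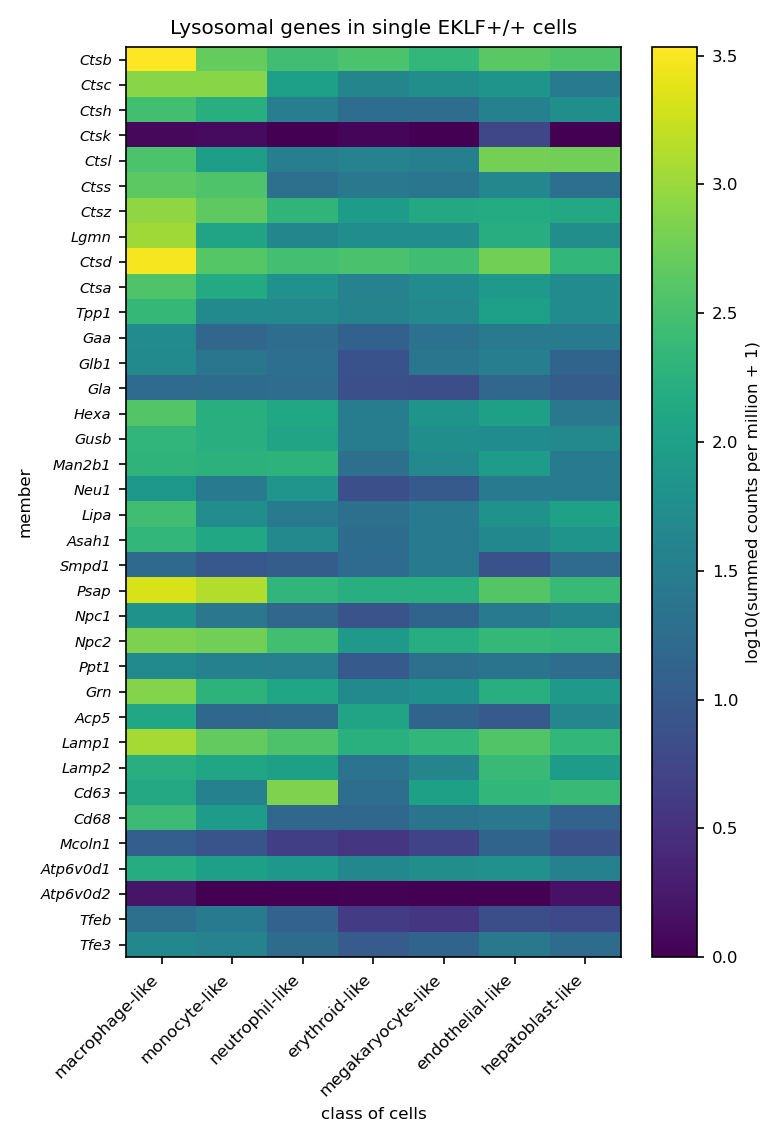
Level of each of the 36 lysosomal genes (rows) in 7 classes of cells from the single-cell library (columns), as log10 of summed CPM plus 1, from dark (0) to yellow (the highest). The macrophage-like column is the brightest for 27 of 36 rows, Cd63 is brightest in neutrophil-like cells, Ctsl in endothelial-like and hepatoblast-like cells, and Acp5 is about as bright in erythroid-like as in macrophage-like cells.

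Macrophage-like cells had the highest level of 27 of the 36 genes, and with globin genes left out also of 27, with Acp5 then highest in erythroid-like cells and Ctsc in macrophage-like cells. Ctsb (3416 CPM), Ctsd (3015 CPM), Psap (2064 CPM) and Lamp1 (1138 CPM) made up 53.6% of the counts on these genes there. Ctsb was 6.961-fold, Lgmn (1061 CPM) 6.771-fold and Ctsd 5.036-fold above the next class. Ctsc was 796.9 CPM in macrophage-like and 797.5 CPM in monocyte-like cells, and their 95% exact Poisson intervals overlapped. Cd63 was 706.9 CPM in neutrophil-like cells and 135.5 CPM in macrophage-like cells. Man2b1 (188.5 against 196.1 CPM) and Neu1 (67.97 against 74.59 CPM) were nearly as high in neutrophil-like as in macrophage-like cells, and Gla was as high (104.7% of the macrophage-like level). Of the 9 genes higher in EKLF-/- and lower in EKLF/GFP+, the level in neutrophil-like cells ranged from 4.374% of that in macrophage-like cells for Ctss, 10.06% for Psap and 12.28% for Ctsc to 91.12% for Neu1, 96.12% for Man2b1 and 521.7% for Cd63. The macrophage markers Adgre1, C1qa and Vcam1 were at 7.42%, 4.37% and 6.58% by the same measure, and the share of Ctss lay in that range. The source of these shares in neutrophil-like cells was not tested. Ctsl was highest in endothelial-like (622.3 CPM) and hepatoblast-like cells (611.6 CPM), against 343.8 CPM in macrophage-like cells. Tfeb was highest in monocyte-like cells (27.19 CPM, against 19.23 CPM in macrophage-like and 3.101 CPM in erythroid-like cells). Ctsk and Atp6v0d2 did not reach 1 CPM in macrophage-like cells.

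Acp5 and Smpd1 had the highest levels in erythroid-like cells relative to macrophage-like cells. Over the 34 genes other than Ctsk and Atp6v0d2, the level in erythroid-like cells was 4.958% to 107.8% of that in macrophage-like cells, with a median of 11.12%. Adgre1, C1qa and Vcam1, which mark macrophages, were at 5.88%, 5.37% and 5.22% by the same measure. Whether shares near these values come from background RNA, doublets or low expression was not tested. Acp5 was 130.4 CPM in macrophage-like cells and 114.3 CPM in erythroid-like cells (87.65%, or 114.0% with globin genes left out of the totals), and Smpd1 was 14.9 and 16.06 CPM (107.8%). Smpd1 was highest in megakaryocyte-like cells (28.01 CPM), and its level in hepatoblast-like cells (16.09 CPM) was close to that in erythroid-like cells. Within the erythroid-like clusters, Acp5 was 111.1 CPM in cluster 4, 177.5 CPM in cluster 6 and 20.37 CPM in cluster 7, and Smpd1 was 20.02, 16.56 and 0.9404 CPM. Globin took 2.09%, 39.48% and 76.72% of the counts in these clusters, and with globin left out of the totals Acp5 was 113, 293 and 87.5 CPM and Smpd1 20.4, 27.4 and 4.04 CPM. Acp5 was counted in 68.3% of erythroid-like cells (95% exact binomial interval 64.5% to 72.0%) and in 67.7% of macrophage-like cells, at median depths of 27250 and 14480 counts. For comparison, Ctsc was counted in 47.82% of erythroid-like cells and in 97.71% of macrophage-like cells. Ctsb was 336 CPM in erythroid-like cells, 9.836% of its level in macrophage-like cells, and Ctsc was at 4.958%, below the share of the macrophage markers.

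Macrophage-like cells themselves differed in these genes. The summed level was 21950 CPM in cluster 1 (407 cells, led by Cd5l, Marco, Fcna and Vcam1), 16590 CPM in cluster 0 (656 cells) and 14240 CPM in cluster 2 (378 cells, led by Cx3cr1 and Fcrls), and cluster 1 was the highest of the 3 for 30 of 36 genes. Outside these 3, the unnamed cluster 13 had 24300 CPM, at a median of 5158 counts per cell, and the unnamed cluster 8 had 15630 CPM. Per cell, the share of counts on these genes had a median of 2.156% in cluster 1, 1.57% in cluster 0 and 1.393% in cluster 2. Of the 3 macrophage-like clusters, cluster 0 spread most, from 0.3221% at the 5th to 3.133% at the 95th percentile. It also had the fewest counts per cell of the 3 (median 9680, against 22980 in cluster 1 and 20090 in cluster 2). Ctsd was 4041 CPM in cluster 1 and 1727 CPM in cluster 2, and Acp5 185.5 and 55.47 CPM. Ctss (494.3 CPM, against 436.3 CPM in cluster 1) and Cd63 (166.2 against 123.2 CPM) were instead highest in cluster 2. The clusters were drawn from the expression of these same cells, so these differences describe the clusters and were not tested.

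**Figure D5:**
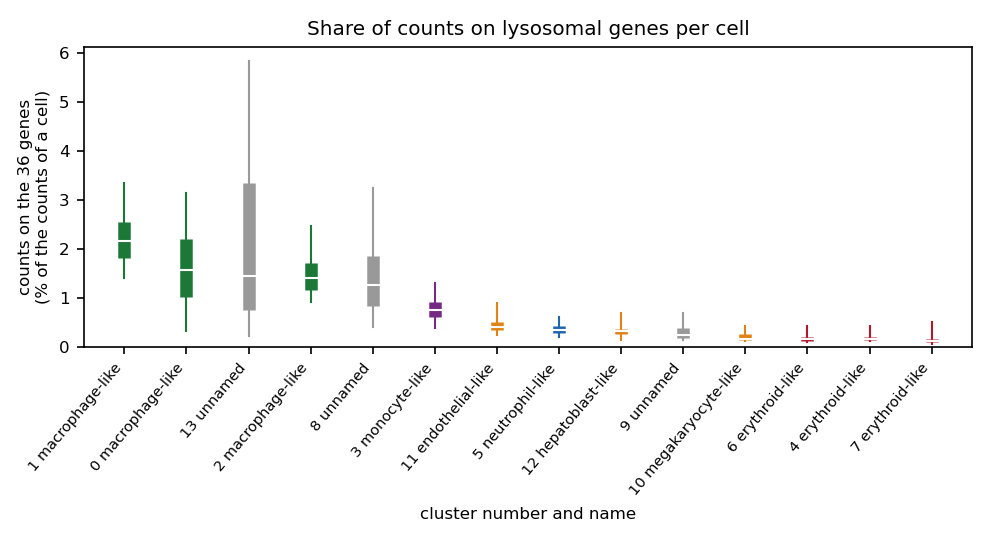
Share of the counts of a cell that fell on the 36 lysosomal genes (y axis, %), for each single-cell cluster (x axis, ordered by median), with the median as a white line, a thick bar from the 25th to the 75th and a thin line from the 5th to the 95th percentile of cells. The macrophage-like clusters 1, 0 and 2 (green) have medians of 2.156%, 1.57% and 1.393%, and the erythroid-like clusters (red) have medians at or below 0.1603%.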

How the data were processed

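Whole-transcriptome RNA-Seq was measured in 12 bulk libraries of FACS-sorted F4/80+ cells and 1 single-cell library. For EKLF+/+ and EKLF-/-, the authors aligned reads to mm10 with STAR and deposited counts per gene from htseq-count, whose strand setting is not given in the sources used here. For EKLF/GFP+ and EKLF/GFP-, the authors deposited estimated counts, TPM and effective lengths per transcript from Salmon (GRCm38), which were summed to genes and rounded. For the single-cell library, the authors deposited Alevin estimated counts per cell. Because these tools differ, no test crossed the EKLF and EKLF/GFP libraries, and 5 columns of other values were not used. In the htseq-count tables, 1884 older gene symbols were translated.

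Genes that reached 10 counts in 3 or more libraries were tested with edgeR 4.0.16 (TMM, quasi-likelihood, Benjamini-Hochberg adjusted p over all genes, threshold 0.05, 2-sided), each comparison fitted on its own 6 libraries. DESeq2 1.42.0, other normalizations and filters, a replicate block, an offset for transcript length and leaving out each library were tried, and the procedure was tested on simulated data. Cells were clustered with Seurat 5.3.0 (at least 200 genes per cell, 4000 variable genes, 30 principal components, resolution 0.8). Scrublet marked 0 doublets among 3093 cells and was taken not to have worked, so doublets remain. All cells come from 1 library, whose intervals cover counting error only.

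All 36 genes are accounted for. Of each list of other pathway genes, the 2 called genes with the largest change in each comparison were named, with Mitf, Tfec and Tcirg1 among the partners and Klf1 as a check. Some items are not reported here. The rule for the 36 genes and the lists of other genes use function and no measured value, but they were proposed with earlier results of these data known, so their selection is not independent of the data. Precision follows depth, which was 10695514 to 15362161 reads per EKLF library and 22723279 to 28736396 per EKLF/GFP library. Replicates are separate samples by their labels, and p-values measure only the spread between them.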

Additional observations from a re-analysis of the deposited data

How the results depend on the processing

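With 1 library left out, the lysosomal genes called higher in EKLF-/- ranged from 4 to 19 and those called lower from 1 to 2, with a median log2 fold change of 0.29 to 0.55. In EKLF/GFP+ they ranged from 3 to 6 higher and 18 to 20 lower, with a median of -0.74 to -0.48. Log2 fold changes in EKLF-/- then ranged from 0.66 to 1.34 for Ctss, 0.59 to 1.16 for Ctsh and 0.43 to 0.81 for Ctsz. They ranged from 0.49 to 1 for Neu1, 0.43 to 0.89 for Tfeb and 0.56 to 1.03 for Cd63. DESeq2 called 16 higher and 2 lower in EKLF-/-, adding Ctsa and Ppt1. A replicate block called 14 higher and 1 lower there, with Ctsb (edgeR adjusted p = 0.0516) and Tfeb (edgeR adjusted p = 0.0575) lost and Ppt1 gained. It called 5 higher and 19 lower in EKLF/GFP+. Same-numbered samples correlated at -0.007, 0.039 and 0.089 in the EKLF libraries and at 0.026, -0.054 and 0.028 in the EKLF/GFP libraries. EKLF/GFP- replicate 2 and EKLF/GFP+ replicate 1 reached 0.125. The replicate numbers thus showed no pairing, but 3 samples a group cannot exclude one, and the main fits used none. With an offset for transcript length, 4 were higher and 21 lower in EKLF/GFP+, with Npc1 and Grn gained.

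Some counts in the other pathway lists moved by over 1.5 times, and the cause was not tested. In EKLF-/-, the block left 0 called higher among cathepsin inhibitors, mannose 6-phosphate genes, V-ATPase subunits and other membrane proteins, while DESeq2 called 3 mannose 6-phosphate genes and 6 V-ATPase subunits higher and 2 other membrane proteins lower. In EKLF/GFP+, 2 mannose 6-phosphate genes were lower with DESeq2 size factors, 1 was higher and 2 lower with the length offset, 1 V-ATPase subunit was higher with the block and with the offset, and 1 other membrane protein was higher with the offset. Leaving out 1 library in EKLF-/- gave 0 to 3 cathepsin inhibitors higher, 0 to 4 signalling genes higher and 1 to 4 lower, 0 to 3 mannose 6-phosphate genes higher and 1 to 3 lower, 0 to 7 V-ATPase subunits higher, 1 to 6 other hydrolases higher and 1 to 4 lower, and 0 to 2 other membrane proteins higher. In EKLF/GFP+ it gave 1 to 4 mannose 6-phosphate genes higher and 2 to 3 lower, 1 to 2 V-ATPase subunits higher and 3 to 6 lower, 2 to 3 other membrane proteins higher, and 3 to 4 signalling genes higher.

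Signs turned among genes that were not called. Leaving out 1 library gave log2 fold changes in EKLF-/- of -0.37 to 0.06 for Lgmn, -0.04 to 0.05 for Tpp1, -0.01 to 0.29 for Glb1, -0.08 to 0.10 for Lipa, -0.03 to 0.05 for Asah1, -0.12 to 0.08 for Npc1 and -0.24 to 0.15 for Mitf. In EKLF/GFP+ it gave -0.06 to 0.57 for Ctsh, -0.21 to 0.04 for Ctsl, -0.06 to 0.56 for Lgmn, -0.09 to 0.09 for Mcoln1 and -0.20 to 0.00 for Atp6v0d1. Mcoln1 was 0.01 with DESeq2, with DESeq2 size factors and with no filter. The single-cell ratio of 9.646 was 9.368 at resolution 0.4, 9.354 with at least 1000 genes per cell, and 7.411 without globin genes, a setting chosen after seeing the data. Resolution 0.4 without globin genes gave 5.723.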

Other observations

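In the single-cell library, where no test was possible, the order of cell classes differed between the other lysosomal lists. The 30 other hydrolases and cofactors summed to 1580 CPM in macrophage-like and 213.8 CPM in erythroid-like cells, and the 17 other V-ATPase subunits to 4296 and 1253 CPM. The 3 cathepsin inhibitors were instead highest in monocyte-like cells, at 2145 CPM against 1535 CPM in macrophage-like cells. The 9 genes of mannose 6-phosphate tagging and sorting were 407.6 CPM in macrophage-like, 365.1 CPM in hepatoblast-like and 152.1 CPM in erythroid-like cells. The 16 genes of lysosomal signalling were highest in neutrophil-like cells, with 1338 CPM in neutrophil-like, 1282 CPM in macrophage-like and 518.9 CPM in erythroid-like cells.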
